A study of Mus musculus with 19 samples.

Results

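Obox, Khdc1 and Oog1 are oocyte gene families of the mouse whose members lie in near-identical copies, so that a short read can match more than 1 gene. The rows were chosen by symbol: Obox1, Obox2, Obox3, Obox5 and Obox6, Khdc1a, Khdc1b and Khdc1c, and Oog1. All 9 symbols had a row, each symbol had exactly 1 row, and the table held 36172 rows in all. Earlier results of the same libraries had already shown how these rows vary with age, so their levels and changes by age are given as a description. RNA of whole ovaries from female mice of the inbred laboratory strain C57BL/6 was sequenced at ages of 3, 6, 9 and 12 months. The labels name no treatment, transgene or genotype at any age. The ages of 3, 6 and 9 months had 5 libraries each and the age of 12 months had 4, with 10851519 to 14302207 estimated counts per library. Whether the libraries of an age are different mice is not stated in the labels. Every SD given here is therefore the spread between libraries, which may be technical. The SE of a fitted log2 change comes from the test itself, which pools the spread between libraries over the ages fitted. Libraries of other ages can therefore move it.

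Obox genes encode oocyte-specific homeobox proteins, a rodent group of DNA-binding proteins made in the growing oocyte and the early embryo. In mouse embryos OBOX proteins are known for a part in switching on the embryo's own genes after fertilization. Khdc1 genes encode small proteins with a KH domain, a fold that in many proteins binds RNA, and they are expressed in oocytes and cleavage-stage embryos. Oog1, or oogenesin 1, encodes a leucine-rich repeat protein of the PRAME family and is likewise expressed in oocytes and early embryos.

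In the RefSeq annotation of GRCm38.p6, the mm10 genome, the 5 Obox members lie in 1 cluster on chromosome 7. Obox2 is at chr7:15388851-15398545, Obox1 at chr7:15547257-15556846 and Obox5 at chr7:15750370-15759274, all on the plus strand. Obox3 at chr7:15625306-15639777 and Obox6 at chr7:15833250-15839679 are on the minus strand. The Khdc1 members are neighbours on the plus strand of chromosome 1, with Khdc1a at chr1:21349677-21352199, Khdc1c at chr1:21368331-21369743 and Khdc1b at chr1:21383556-21386384. Oog1 is alone among the members on chromosome 12, at chr12:87602665-87608845 on the plus strand. RefSeq and the deposited table give the symbols Khdc1b and Khdc1c to the same gene IDs, although each of these genes has the other's symbol as an alias.

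The coding sequences show how close the copies are. Khdc1a and Khdc1c were identical at 497 of 498 coding bases (99.8%), while Khdc1a and Khdc1b were identical at 93.7% of 378 aligned bases. The stretch that holds the 1 differing base is shown from GENCODE M21 transcripts, at coding bases 386 to 445 counted from the A of the start codon, with the differing base of Khdc1c in a capital.
Khdc1a: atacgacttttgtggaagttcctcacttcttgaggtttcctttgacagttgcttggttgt
Khdc1c: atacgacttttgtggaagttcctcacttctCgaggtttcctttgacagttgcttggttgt

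Obox1 and Obox2 were identical at 98.5% of 453 aligned coding bases, Obox1 and Obox5 at 95.6% of 612, and Obox1 and Obox3 at 94.0% of 612. Obox6 was the most distant member, at 77.9% of 612 bases against Obox1. The annotated reading frame of Obox2 has 151 codons, against 204 for Obox1, 291 for Obox5 and 335 for Obox3. Inside the homeobox Obox2 lacks 1 base that Obox1 has, and the stretches around it are shown because they separate the copies. They start at coding base 318 of each gene, and a capital marks the base of Obox1 that is missing in Obox2, or a base of Obox5 or Obox3 that differs from Obox1. Because the missing base lies in a run of 2 identical bases, which of the 2 is missing cannot be told.
Obox1: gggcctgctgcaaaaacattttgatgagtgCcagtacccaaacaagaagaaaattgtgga
Obox2: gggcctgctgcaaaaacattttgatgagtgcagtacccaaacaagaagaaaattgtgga
Obox5: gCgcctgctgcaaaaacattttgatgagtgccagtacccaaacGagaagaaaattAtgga
Obox3: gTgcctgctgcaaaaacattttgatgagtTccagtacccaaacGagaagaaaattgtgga

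Farther along the homeobox, in the codons around the tryptophan and phenylalanine of the helix that contacts DNA in homeodomains, the copies stay close while Obox6 stands apart. In the 72 bases shown, from coding base 391 in Obox1, Obox5 and Obox3 and from 544 in Obox6, Obox5 had 3 differences from Obox1, Obox3 had 2 and Obox6 had 16. Capitals mark the differing bases.
Obox1: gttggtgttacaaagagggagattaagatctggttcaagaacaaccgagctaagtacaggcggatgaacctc
Obox5: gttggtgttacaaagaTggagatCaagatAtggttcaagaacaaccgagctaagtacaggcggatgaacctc
Obox3: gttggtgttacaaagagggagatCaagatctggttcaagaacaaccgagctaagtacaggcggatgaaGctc
Obox6: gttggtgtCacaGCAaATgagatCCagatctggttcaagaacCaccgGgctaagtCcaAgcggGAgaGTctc

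Reads from these genes differ in how far they can be placed. Of all windows of 50 bases in the Oog1 transcript, 96.7% also occurred in a transcript of another gene. The predicted gene Gm2042 held 94.8% of them, Gm10436 62.3%, Gm13023 20.5% and C87977 18.7%, and a window can occur in several of these genes. At 100 bases the share for Oog1 was 91.7%. Obox2 shared 63.0% and Obox1 59.3% of their windows of 50 bases, mostly with each other, in 848 windows of each. Khdc1a shared 43.5% and Khdc1c 43.1%, of which 818 windows of each were common to the pair. The GENCODE transcript of Khdc1c is longer than its RefSeq span, so part of its windows may lie outside the counted model. Obox3 shared 40.6%, mainly with annotated Obox3 pseudogenes. Obox5 shared 13%, Obox6 5.02% and Khdc1b 3.66%, and at 100 bases these 3 shares fell to 0.115% for Obox5 and to 0% for Obox6 and Khdc1b. The sources used here give neither the read length nor the method of counting. The deposited counts are estimates that need not be whole, and the number of libraries with a value that is not whole (within 1e-08) was 17 of 19 for Oog1 and 15 of 19 for Obox2. It was 13 of 19 for Khdc1a and for Khdc1b, 6 for Khdc1c, 5 for Obox5 and 3 for Obox1. How the authors' counting divided reads between copies was not tested. RefSeq lists 47 Obox pseudogenes, 30 of them had a row by gene ID, and all 30 were listed at 0 in all 19 libraries.

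**Figure D1:**
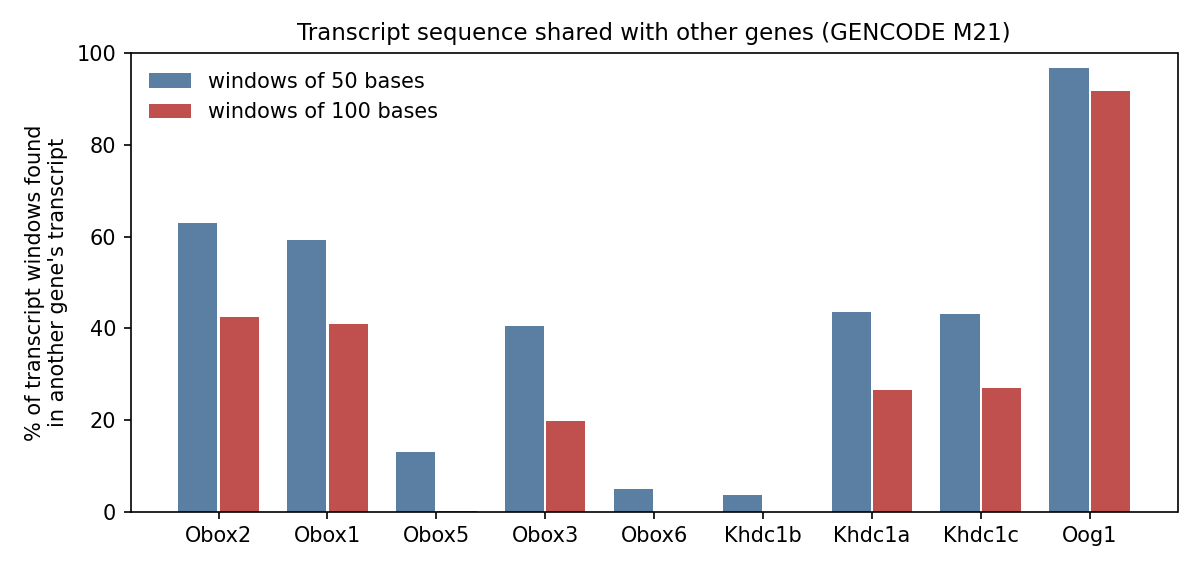
Share of transcript windows of 50 and 100 bases (y axis, %) that also occur in a transcript of another gene in GENCODE M21, for the 9 member genes (x axis). Oog1 is highest at 96.7% and 91.7%, and Khdc1b is lowest at 50 bases with 3.66%.

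The bases just before the annotated starts were compared as a description. The fall with age did not set the Obox rows apart, since the Khdc1 and Oog1 rows fell as well. Whether these bases bear on the levels was not tested. RefSeq promoters, from 250 bases before to 50 after a start, were held for 6 of the 9 members, namely Obox1, Obox2, Obox3, Obox5, Khdc1b and Oog1. The 100 bases before the start are shown for 5 of them, on the gene's strand, with matches to GTGGGTGGAG and TATATAA in capitals. The positions are chr7:15547157-15547256 for Obox1, chr7:15750270-15750369 for Obox5, chr7:15639778-15639877 on the minus strand for Obox3, chr12:87602565-87602664 for Oog1 and chr1:21383456-21383555 for Khdc1b.
Obox1: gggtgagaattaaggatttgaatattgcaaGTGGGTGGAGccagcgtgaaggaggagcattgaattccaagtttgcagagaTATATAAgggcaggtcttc
Obox5: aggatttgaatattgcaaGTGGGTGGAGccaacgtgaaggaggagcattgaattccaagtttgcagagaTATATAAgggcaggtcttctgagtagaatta
Obox3: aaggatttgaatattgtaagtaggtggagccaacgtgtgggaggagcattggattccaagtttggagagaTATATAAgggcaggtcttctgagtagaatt
Oog1: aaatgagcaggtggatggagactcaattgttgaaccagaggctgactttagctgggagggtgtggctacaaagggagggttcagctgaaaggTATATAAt
Khdc1b: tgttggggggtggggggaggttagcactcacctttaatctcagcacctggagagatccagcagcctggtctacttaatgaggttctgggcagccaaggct

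Both motifs were picked after these sequences had been read, and both strands were searched. GTGGGTGGAG begins at position -70 in Obox1 and -82 in Obox5, and in Obox2 at 27, that is after the annotated start. The match of Obox1, Obox2 and Obox5 overlaps a match to CANNTG, the E-box consensus. It is not found in the windows of Obox3, Oog1 or Khdc1b. It is not confined to Obox genes, since the oogenesins Oog3 and Oog4 each hold it at -112, and 0.472% of 32851 promoters in the table hold it on either strand. TATATAA begins at -19 in Obox1, -31 in Obox5, -30 in Obox3 and -8 in Oog1, and 3.24% of promoters hold it on either strand. CANNTG was found in 72.3% of all promoters and in each member's window except that of Obox3.

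Some libraries stand apart. Summed B cell and lymph node markers or liver markers were above 50 CPM in 4 of them, replicates 1, 2 and 3 of 9 months and replicate 2 of 12 months, against at most 7.34 and 43.0 CPM at 3 and 6 months. The liver list reached 554 CPM in replicate 3 of 9 months and the lymph node list 215 CPM in replicate 2 of 12 months. Replicate 2 of 9 months also had the lowest summed oocyte markers of all 19 libraries, 72.01 CPM, and the lowest summed granulosa cell markers, 1990 CPM. Its summed oviduct epithelium markers were the highest of all 19, at 6365 CPM. The fitted log2 changes and the counts of calls are given with and without these 4 libraries, while levels, family shares, values relative to oocyte markers and profile ranks rest on all 19. The part of the other tissues' transcripts in those values was not tested.

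Of the 9 members, 7 passed the filter on low counts. Obox6 was listed at 0 in all 19 libraries, where a count of 0 allows up to 0.210 to 0.276 CPM per library (3 counts of the library total, counting error only). Obox3 was above 0 in 7 of 19 libraries and never exceeded 2 estimated counts. Levels are CPM, that is estimated counts scaled to a common library size with TMM factors, and are given as mean ± SD over the libraries of an age. Genes were compared per kilobase of GENCODE M21 transcript. The counts are for RefSeq gene models, whose lengths can differ, so such a comparison is only approximate. By this measure Khdc1b was highest at 3 months at 24.1 ± 4.22 CPM per kilobase (SD, n = 5). Obox2 followed at 15.3 ± 2.88, and then Khdc1a at 7.07 ± 1.45, Obox5 at 6.24 ± 1.35, Obox1 at 5.75 ± 1.22 and Oog1 at 5.27 ± 1.02. Among those last 4, each mean differed from the next by less than the SD. The rows share their libraries, so the SD is not the error of such a difference, and the order was not tested. Khdc1c was lowest of the 7 at 1.13 ± 0.261 CPM per kilobase, and it was lowest in CPM as well. The 1946 bases used for Khdc1c exceed its whole RefSeq span, chr1:21368331-21369743. Its values per kilobase may therefore be too low at every age. At 12 months the order per kilobase began with Khdc1b at 7.00 ± 2.84 and Obox2 at 3.74 ± 1.26 and ended with Khdc1c at 0.205 ± 0.132 (SD, n = 4). Oog1, at 1.79 ± 0.169, then stood beside Khdc1a at 1.79 ± 0.558.

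Obox2, the highest Obox row, had 21.3, 20.01, 28.2, 17.3 and 24.5 CPM in the 3-month libraries and 13.95, 10.6, 10.6, 11.3 and 19.3 CPM at 6 months. It had 6.23, 1.22, 6.19, 4.52 and 6.70 CPM at 9 months and 6.20, 5.09, 3.12 and 7.45 CPM at 12 months. Every library at 9 and 12 months was below every library at 3 and 6 months, while the 3-month and 6-month ranges overlapped and so did those at 9 and 12 months. Obox2 fell, with a fitted log2 change of -2.03 ± 0.34 (SE) at 12 months against 3 months, which is 24.5% of the 3-month level. In whole ovaries fewer oocytes, less RNA per oocyte and a larger part of other tissue cannot be told apart, here and in what follows.

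Obox1 showed the same order of ages at a lower level. It averaged 8.70 ± 1.85 CPM at 3 months and 5.42 ± 1.43 CPM at 6 months, then 1.96 ± 1.16 CPM at 9 months and 2.09 ± 0.492 CPM at 12 months (SD, n = 5, 5, 5 and 4). The 9-month libraries had 3.08, 0.144, 2.74, 1.56 and 2.28 CPM, so replicate 2 was far below the others of its age. Its log2 change between 12 and 3 months was -2.05 ± 0.42.

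Obox5 averaged 11.4 ± 2.48 CPM at 3 months and 6.93 ± 2.64 CPM at 6 months, then 2.69 ± 1.70 CPM at 9 months and 2.32 ± 1.07 CPM at 12 months. Its lowest and highest libraries were 1.04 and 3.596 CPM at 12 months, against 9.49 and 15.7 CPM at 3 months. The log2 change between 12 and 3 months was -2.30 ± 0.42. Whether it differs from those of Obox1 and Obox2, measured in the same libraries, was not tested.

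Khdc1b, the highest of all 9 rows, had 57.3, 44.9, 68.6, 48.4 and 49.9 CPM at 3 months and 38.1, 35.5, 25.0, 28.7 and 53.3 CPM at 6 months. It had 17.6, 1.87, 11.7, 8.93 and 18.2 CPM at 9 months and 19.7, 15.5, 6.73 and 20.6 CPM at 12 months. Again the 2 older ages lay wholly below the 2 younger ones, with 1 low library at 9 months and 1 at 12 months. The log2 change between 12 and 3 months was -1.78 ± 0.42, or 29.1% of the 3-month level.

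Khdc1a averaged 14.1 ± 2.88 CPM at 3 months and 9.08 ± 2.70 CPM at 6 months, then 2.79 ± 1.79 CPM at 9 months and 3.55 ± 1.11 CPM at 12 months. Its log2 change between 12 and 3 months was -1.98 ± 0.41. Khdc1c, whose coding sequence is nearly that of Khdc1a, stood far below it. Khdc1c averaged 2.20 ± 0.508 CPM at 3 months and 1.26 ± 0.603 CPM at 6 months, then 0.465 ± 0.400 CPM at 9 months and 0.400 ± 0.257 CPM at 12 months. In replicate 2 of 9 months it was listed at 0, which allows up to 0.217 CPM there, and its log2 change between 12 and 3 months had the widest error of the 7, at -2.43 ± 0.57.

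Oog1 had 8.12, 8.97, 12.7, 8.63 and 8.97 CPM at 3 months and 6.28, 5.77, 4.91, 5.62 and 9.996 CPM at 6 months. It had 3.27, 1.70, 2.74, 2.07 and 3.40 CPM at 9 months and 3.19, 2.81, 3.41 and 3.49 CPM at 12 months. The 4 libraries at 12 months were close to each other, with a coefficient of variation of 9.44%, against 23.5% to 64.2% for the other 6 tested rows at that age. The log2 change between 12 and 3 months was -1.55 ± 0.23, the nearest to 0 of the 7 rows. Whether it differs from those of the other rows was not tested.

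**Figure D2:**
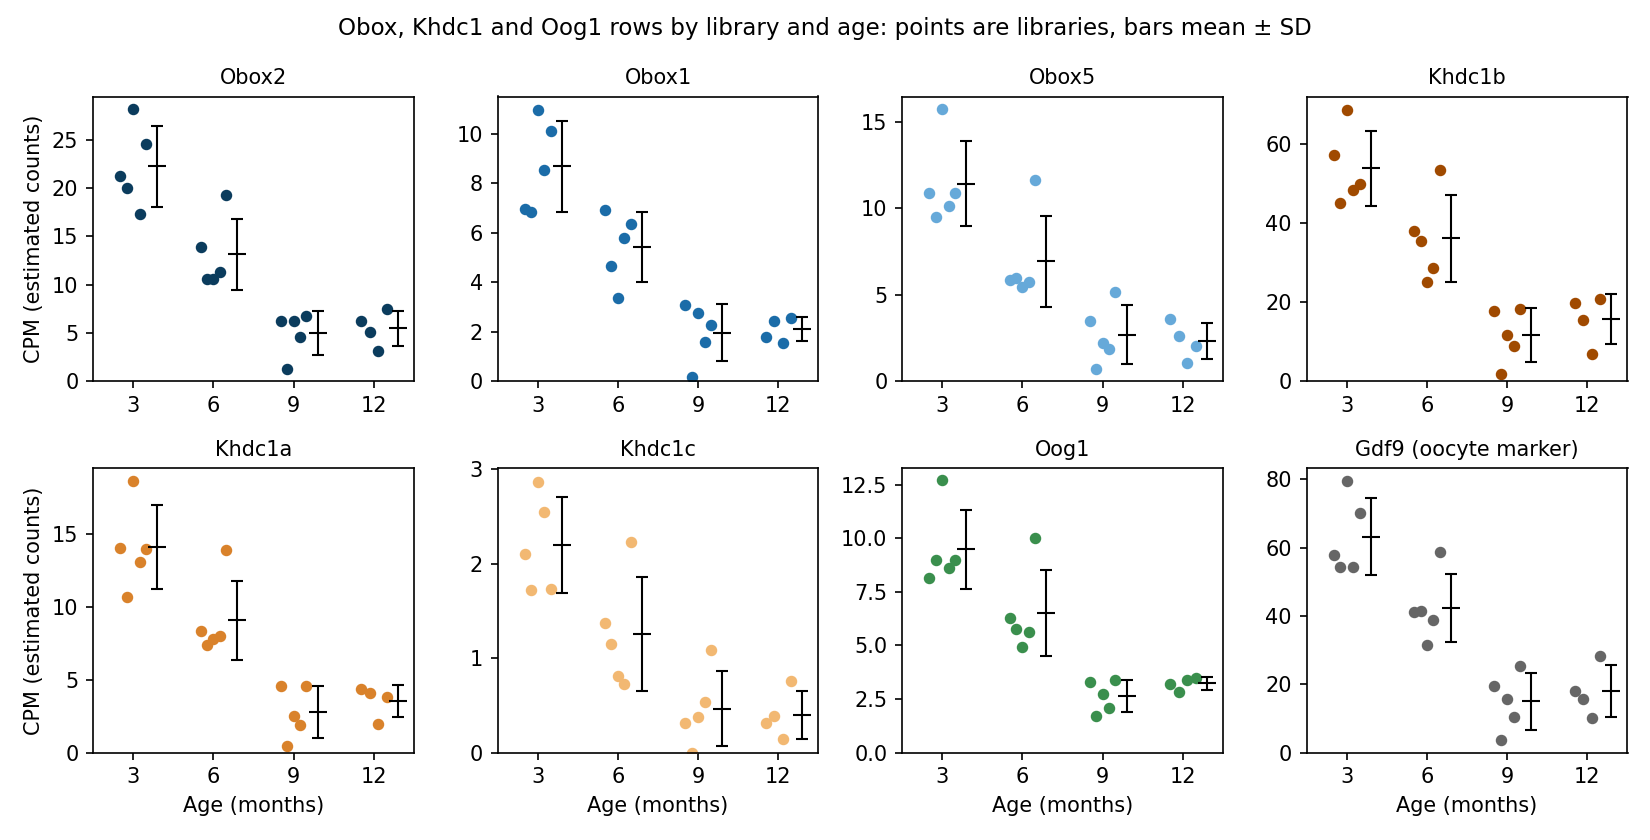
CPM (y axis) of the 7 tested rows and of the oocyte gene Gdf9 in each library, by age in months (x axis); points are libraries and black bars the mean ± SD (n = 5, 5, 5 and 4). In each panel but that of Khdc1c every library at 9 and 12 months lies below every library at 3 and 6 months.

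Between 12 and 3 months all 7 tested rows fell, with an adjusted p under 0.05 in edgeR's quasi-likelihood test over 15518 genes, of which 11.5% were called lower and 22.4% in either direction. In all 7 every 12-month library was below every 3-month library, as in 9.73% of the tested genes. The median log2 change of the 7 was -2.03, against 0.02 for all tested genes. Between 9 and 3 months all 7 fell again, where 13.6% of genes were called lower and 25.0% in either direction. The log2 changes ran from -1.84 ± 0.22 for Oog1 to -2.33 ± 0.38 for Khdc1a, with a median of -2.17 against 0.01 for all genes. In all 7 every 9-month library was below every 3-month library, which held for 9.46% of genes. Since the members were known to vary with age, these counts add nothing to how they were chosen. The comparisons share libraries, so their values are not independent of each other.

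Of the 3 steps between neighbouring ages, the one to 9 months held the calls. Between 9 and 6 months 6 of the 7 rows fell, where 9.80% of genes were called lower and 17.2% in either direction, and in the same number of rows every 9-month library was below every 6-month library, as in 7.73% of genes. The log2 changes of those 6 ran from -1.30 ± 0.22 for Oog1 to -1.70 ± 0.38 for Khdc1a, and Khdc1c, at -1.44 ± 0.53, did not pass. Between 6 and 3 months 0 of the 7 rows passed in edgeR, where 0.00644% of genes were called lower and 0.0193% in either direction, and all 7 ranges overlapped, while 1.85% of genes had every 6-month library below every 3-month library. Their log2 changes ran from -0.54 ± 0.21 for Oog1 to -0.80 ± 0.46 for Khdc1c, and all 7 were below 0. At an unadjusted p under 0.05 2 of the 7 rows were counted, and 1528 of all genes. Between 12 and 9 months 0 rows passed in edgeR, as did 0% of genes, and 1.10% of genes had every 12-month library below every 9-month library. The log2 changes ran from -0.21 ± 0.42 for Obox5 to 0.42 ± 0.43 for Khdc1b. At an unadjusted p under 0.05 0 rows were counted there, against 2152 of all genes.

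**Figure D3:**
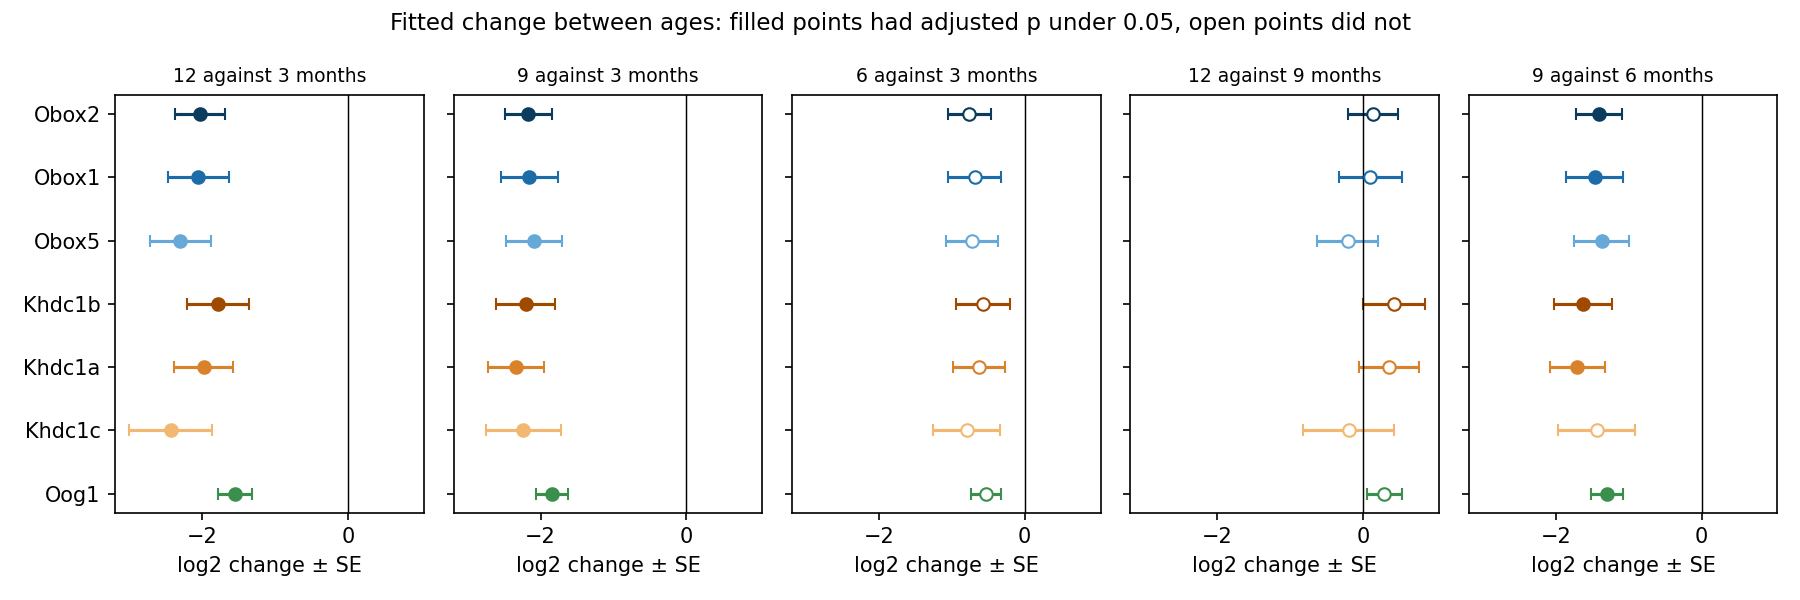
Fitted log2 change ± SE (x axis) of the 7 tested rows (y axis) in 5 comparisons of ages, the older age over the younger. Filled points passed an adjusted p of 0.05 in edgeR and open points did not, and the values near -2 in both comparisons of the older ages with 3 months stand beside values near 0 between 12 and 9 months.

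Except for Khdc1c, the mean shares of the tested members in their family differed little between 3 and 12 months, while their levels fell. Obox2 made up 54.9 ± 4.90% of the summed Obox CPM at 12 months, against 52.4 ± 2.85% at 3 months. Obox5 made up 22.9 ± 6.65% at 12 months and 26.9 ± 1.92% at 3 months, and Obox1 22.0 ± 4.96% at 12 months and 20.5 ± 2.45% at 3 months. In the Khdc1 family Khdc1b held 79.2 ± 2.57% at 12 months and 76.9 ± 1.26% at 3 months. Khdc1a held 18.9 ± 2.97% at 12 months and 20% ± 1.11 at 3 months, and Khdc1c held 1.97 ± 0.734% at 12 months and 3.14 ± 0.515% at 3 months. Except for Khdc1c these differences were smaller than the SD at 12 months. At 9 months the shares in single libraries ran from 6.90 to 24.6% for Obox1 and from 19.8 to 36.6% for Obox5. They ran from 0 to 4.75% for Khdc1c and from 76.35 to 81.25% for Khdc1b. Summing the rows of a family avoids the split between copies within it. The Obox sum was 9.88 ± 2.88 CPM at 12 months against 42.5 ± 7.94 CPM at 3 months, a log2 change of -2.10 ± 0.36. The Khdc1 sum was 19.6 ± 7.55 CPM at 12 months against 70.1 ± 12.6 CPM at 3 months, a log2 change of -1.83 ± 0.43.

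**Figure D4:**
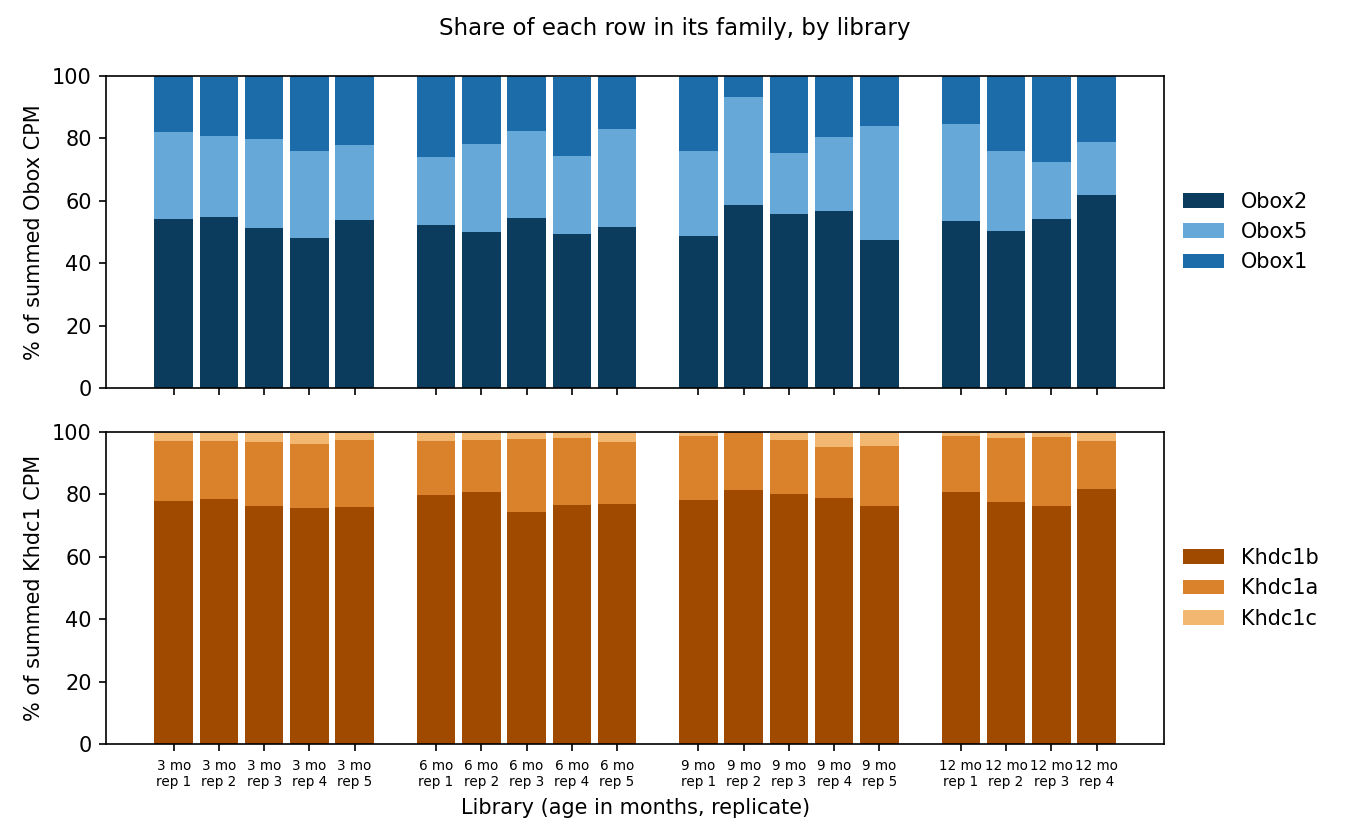
Share (y axis, %) of each row in the summed CPM of its family, for the Obox rows above and the Khdc1 rows below, in each of the 19 libraries ordered by age (x axis). Obox2 and Khdc1b hold the largest share at every age, with means of 51.5% to 54.9% for Obox2 and 76.9% to 79.2% for Khdc1b.

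These rows were set against markers of the oocyte, since whole ovaries were sequenced and oocytes are a small part of the tissue. Gdf9, a growth factor that oocytes secrete, averaged 18.1 ± 7.64 CPM at 12 months, against 63.2 ± 11.2 CPM at 3 months. Zp3, a zona pellucida protein that sperm bind, averaged 12.2 ± 4.51 CPM at 12 months, against 41.1 ± 7.67 CPM at 3 months. Of 30 oocyte markers 27 fell between 12 and 3 months, with a median log2 change of -1.75, and 11.5% of all genes did. The other 3 were Figla at -2.01, Gpr3 at -1.47 and Uchl1 at -0.49, none of which passed. Summed over the list the oocyte markers ran from 763 to 1081 CPM at 3 months, 418 to 836 at 6 months, 72.01 to 331 at 9 months and, at 12 months, 183 to 375. Nlrp5, Nlrp14, Oas1d, Oosp1, Ooep and Khdc3 stand both in this list and in the lists of related families.

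Relative to the mean log2 level of those 30 markers in the same library, the mean of the Obox and Khdc1 rows at 12 months minus that at 3 months ran from -0.64 for Obox5 to -0.19 for Khdc1b, and it was 0.19 for Oog1. Of those 30 markers Uchl1, at -0.49, and Tle6, at -0.84, fell least. For rows near 0 CPM, such as Figla among the markers, the small count added before taking logs dampens a fall. Both can raise the marker mean at the older ages, and how far they move these differences was not tested. Obox2 stood at 0.18 ± 0.06 above the marker mean at 12 months and 0.54 ± 0.14 above it at 3 months (SD of log2 values). Khdc1b stood 1.62 ± 0.20 above it at 12 months and 1.81 ± 0.10 above it at 3 months. Obox5 was at -1.05 ± 0.44 at 12 months, against -0.42 ± 0.07 at 3 months, the largest such difference among the 7 rows. Oog1 was at -0.49 ± 0.58 at 12 months, against -0.68 ± 0.11 at 3 months, and 2 libraries set that wide error and the one at 9 months. In replicate 2 of 9 months Oog1 was 0.60 above the marker mean and in replicate 3 of 12 months 0.38 above it, while in each of the other 17 libraries it was 0.50 to 0.87 below it. Those 2 libraries had the lowest summed oocyte markers of their ages, 72.01 and 182.5 CPM.

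**Figure D5:**
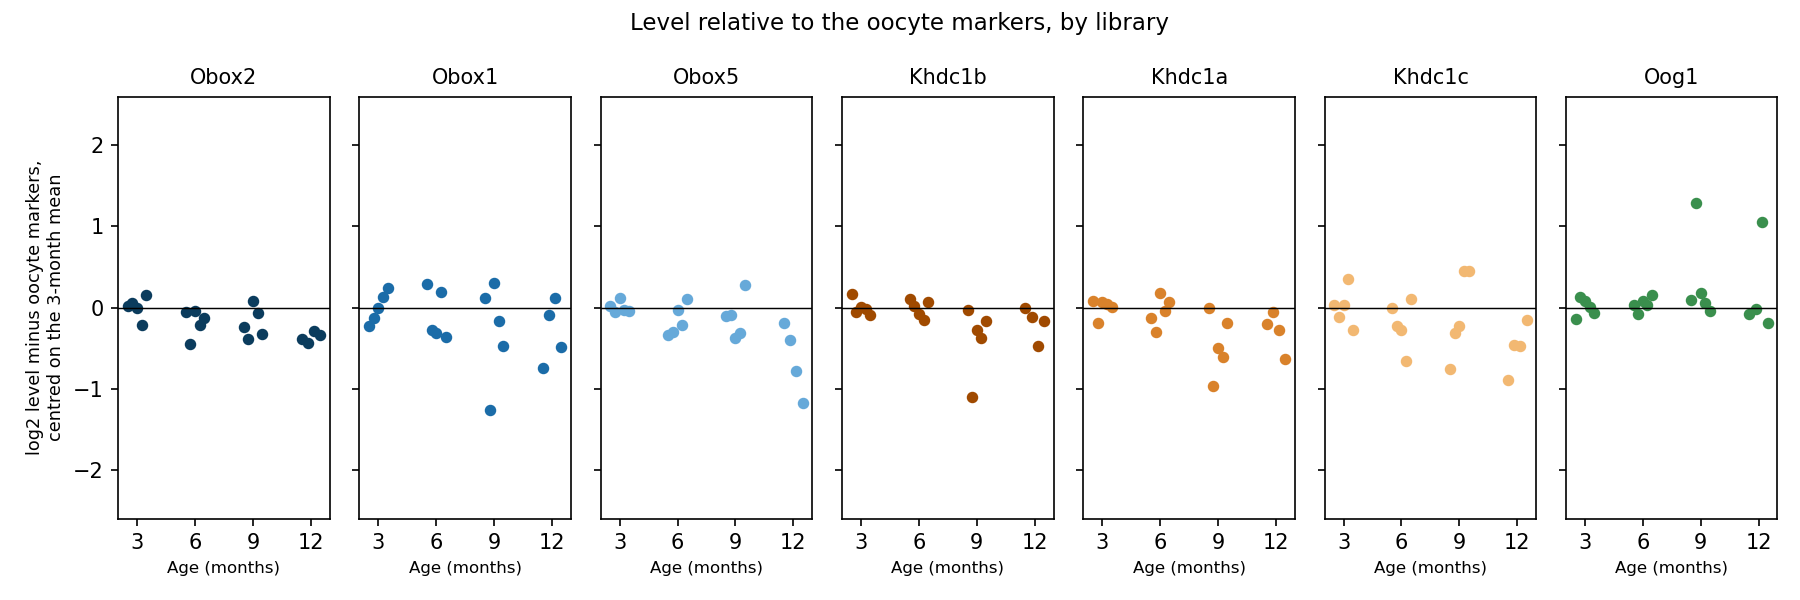
Log2 level of each of the 7 tested rows minus the mean log2 level of 30 oocyte markers in the same library, centred on the 3-month mean of that row (y axis), by age in months (x axis); points are libraries. Oog1 has 1 point at 9 months and 1 at 12 months above all its other points.

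In replicate 2 of 9 months Oog1 had 1.70 CPM, from 23.5 estimated counts, while Khdc1b had 1.87, Obox2 1.22, Obox5 0.720, Khdc1a 0.432 and Obox1 0.144 CPM and Gdf9 had 3.82 CPM. Relative to its mean at 9 months Oog1 was thus less low in that library than the other rows. The genes that share windows with Oog1 were looked at after this had been seen. Gm2042 had 0.288 CPM there, against a mean of 0.753 CPM over the 9-month libraries. Gm10436 had 1.14 CPM, against a mean of 4.35 CPM, Gm13023 had 0.432 against 2.55 CPM, and C87977 had 0.720 against 2.66 CPM. Oog3 had 0.576 and Oog4 0.432 CPM in that library, where Oog2 was listed at 0. In replicate 3 of 12 months Oog1 had 3.41 CPM, within 0.1 CPM of the highest of its age, while Gm13023 had 1.49 and C87977 1.04 CPM, the lowest of theirs. Replicate 2 of 9 months also had 144 CPM of summed B cell and lymph node markers and 165 CPM of liver markers.

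Without the 4 libraries rich in lymph node or liver markers, left out after the data were seen, all 7 rows still fell between 12 and 3 months, with log2 changes from -1.49 ± 0.25 for Oog1 to -2.41 ± 0.50 for Khdc1c, where 2044 of 15727 tested genes were called lower and 24.9% in either direction. Between 9 and 3 months 6 of 7 still passed, with Khdc1c at -1.43 ± 0.53 short of the threshold, where 5.37% of genes were called lower. At 9 months only replicates 4 and 5 were left. In comparisons with 9 months, fewer libraries and less of other tissues' transcripts cannot be told apart. Between 9 and 6 months 4 of 7 passed, where 2.28% of genes were called lower. In that comparison Obox5 was at -0.97 ± 0.44, Khdc1b at -1.40 ± 0.43 and Khdc1c at -0.63 ± 0.53. With only replicate 2 of 9 months left out, all 7 rows fell between 9 and 3 months, from -1.70 ± 0.22 for Oog1 to -2.04 ± 0.29 for Khdc1a. Over all genes 2784 were called there in either direction.

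The genes with the most similar profile were ranked by the SD of their log2 ratio to each family over the 19 libraries, among 13700 genes that share those libraries and their depth. Nearest to the Khdc1 sum was Zp2, a zona pellucida protein, with an SD of 0.081, followed by Nlrp14 at 0.130 and Padi6, a protein of the oocyte's cytoplasmic lattices, at 0.161. Nearest to the Obox sum were Pla2g4c, a phospholipase, at 0.168, Gdf9 at 0.187 and Btg4, which helps degrade maternal messenger RNA, at 0.195. The median over all genes was 1.31 for the Khdc1 sum and 1.19 for the Obox sum. Nearest to Oog1 were Ccdc82 at 0.238, Adamtsl2 at 0.273 and Cpsf4l at 0.283, none of them among the oocyte markers, against a median over all genes of 0.839. For Oog1 Gdf9 came at place 192 with an SD of 0.467, and Zp3 at place 589 with 0.591. Replicate 2 of 9 months and replicate 3 of 12 months, where Oog1 alone stood out against the oocyte markers, weigh on these SDs. Ranks without those libraries were not computed, so the places do not describe Oog1 in the other libraries. Among the members Khdc1a and Khdc1b were nearest to each other at 0.192 and Khdc1b and Oog1 farthest apart at 0.633.

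Oog2, Oog3 and Oog4, the other oogenesins, all fell between 12 and 3 months, with log2 changes of -1.97 ± 0.60 for Oog2, -1.85 ± 0.44 for Oog3 and -2.19 ± 0.39 for Oog4. Oog3 averaged 4.88 ± 2.33 CPM at 12 months, against 17.6 ± 4.92 CPM at 3 months. Of the KH-domain relatives Ooep, Khdc3 and Dppa5a, 3 of 3 fell, and Ooep, a protein of the subcortical maternal complex, averaged 7.94 ± 2.74 CPM at 12 months, against 24.1 ± 4.75 CPM at 3 months. Among 39 listed genes of other clustered oocyte families 37 had a row, 30 were tested and 27 fell, with a median log2 change of -1.76. Examples are Nlrp14 at -1.86 ± 0.45, Nlrp5 at -1.75 ± 0.36, Nlrp4f at -1.94 ± 0.47 and Oas1e at -1.62 ± 0.47. The other 3 did not pass, with Tcl1b2 at -1.37, Tcl1b4 at -1.35 and C87499 at -1.16. Beside these counts stands the share of 11.5% of all tested genes called lower. Obox4, Obox7 and Obox8 had no row under those symbols and were not analysed here.

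Of 19 genes listed for the activation of the embryonic genome, 13 had a row, 2 passed the filter on low counts and 0 were called in edgeR at any comparison. Dppa2 averaged 0.558 ± 0.436 CPM at 12 months and 1.66 ± 0.309 CPM at 3 months, a log2 change of -1.55 ± 0.62 that did not pass. Eif1ad averaged 34.6 ± 3.91 CPM at 12 months and 35.99 ± 1.84 CPM at 3 months, a log2 change of -0.06 ± 0.10. Although listed, Eif1ad is not read here as a mark of that activation.

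Among markers of other ovarian cells, 2 of 10 granulosa cell genes and 3 of 7 theca cell genes passed as lower at 12 against 3 months, beside 11.5% of all genes called lower, and 0 of 17 passed as higher. In the same comparison 4 of 6 B cell and lymph node genes and 2 of 5 oviduct genes passed as higher, beside 10.9% of all genes called higher, and 0 of 4 liver genes were called in edgeR. Replicate 2 of 12 months stood far above the others in the B cell and lymph node list, with a summed 215 CPM, against 3.37 to 13.4 CPM in the other 3 libraries of 12 months and 3.28 to 5.84 CPM at 3 months. Without the 4 libraries rich in lymph node or liver markers, 2 of the 5 tested genes of that list passed as higher, beside 1870 of 15727 genes called higher.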

How the data were processed

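Libraries of whole-ovary RNA were made with a strand-marking kit, per the labels' protocols. The deposited table holds the authors' estimated counts for RefSeq gene models, per the file headers, and a second deposited table holds the authors' log2 values. Per the submitters' processing notes reads were placed on mm10. No source used here names the aligner, the counter or whether strand was used. Each table had 1 column that matched no sample and was not used. The estimated counts were rounded and tested with edgeR 4.0.16 (R 4.3.3), using TMM scaling (factors 0.982 to 1.01), a filter with a minimum count of 10 and a minimum total of 15, the robust quasi-likelihood test on all 19 libraries and Benjamini-Hochberg adjustment at 0.05. The rounding of the estimated counts was part of the plan. CPM was computed from the unrounded estimated counts, and log2 CPM with a prior count of 2. Alternatives used DESeq2 1.42.0, limma 3.58.1 on the deposited log2 values, only the ages compared, family sums and libraries left out. Scripts were tested on simulated data.

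Of all deposited values above 0, 19.9% were whole, as were 46.8% of those of the 9 members. Counts of replicate pairs differed by more than sampling noise in all 36 pairs (chi-square over its degrees of freedom 5.02 to 37.97). Among the 7 tested rows, median estimated counts per library ran from 10.1 for Khdc1c to 312 for Khdc1b, and the median was 0 for Obox3 and Obox6. Zero limits cover counting error only. Transcripts came from GENCODE M21 and promoters and positions from RefSeq, read with Biopython 1.88. The labels name no batch and number the libraries by age, so that handling order and age cannot be told apart. The members and the gene lists were chosen with earlier results of these data known. All member rows are named. Of each family list at most 4 genes are named, those with the highest mean CPM, and markers or list members that missed the threshold were named after their values were seen. Profiles were ranked over tested genes with a mean of at least 1 CPM outside these families, leaving out names starting with Gm, LOC or ending in Rik.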

Additional observations from a re-analysis of the deposited data

Results flagged for a closer look

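In 6 of 31 groups of libraries, each being 1 row at 1 age, the highest library lay far from the others of its age. Chance would flag about 1 independent group in 20. These groups share libraries, so no excess can be read from the count. Replicate 3 of 3 months was high for Obox5 at 15.7 CPM and for Oog1 at 12.7 CPM. Replicate 5 of 6 months was high for Obox5 at 11.6 CPM, for Khdc1a at 13.9 CPM and for Oog1 at 9.996 CPM. These 2 libraries also had the highest summed oocyte markers of their ages, 1081 and 836 CPM. For Obox3 the value was 0.0247 CPM in replicate 3 of 12 months, where the other 3 libraries were listed at 0. A single value above 0 among zeros always meets the rule.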

How the results depend on the processing

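The 7 rows stayed lower at 12 than at 3 months, and past the threshold, whichever library was left out. The log2 changes then ran from -1.60 to -1.42 for Oog1, -2.23 to -1.83 for Obox2 and -1.95 to -1.53 for Khdc1b. Member rows called were 7 to 7 for 12 against 3 months and for 9 against 3 months, 5 to 7 for 9 against 6 months, and 0 to 0 for 6 against 3 and for 12 against 9 months. For 9 against 6 months 5 rows passed without replicate 5 of 6 months, replicate 3 or replicate 4 of 9 months, where 1721, 1741 and 2000 genes were called. When only these 2 ages were fitted 4 rows passed, where 2246 genes were called. With rows of a family summed, 3 of the 3 sums passed in each of the first 3 comparisons, and the genes called in that fit were not counted. Genes called over the whole table were 3475 for 12 against 3 months (2124 to 3806 with 1 library left out, the lowest without replicate 3 of 12 months) and 3872 for 9 against 3 months (2784 to 4484, and 1275 without the 4 libraries rich in other tissues' markers). They were 2676 for 9 against 6 months (1721 to 3212, with 1721 without replicate 5 of 6 months and 1741 without replicate 3 of 9 months, and 557 without the 4 libraries). They were 3 for 6 against 3 months in edgeR (0 to 5, 34 with only these 2 ages, 47 with DESeq2, 8 without the 4 libraries) and 0 for 12 against 9 months in edgeR (0 to 278, the highest without replicate 5 of 9 months, and 252 with DESeq2). Without the 4 libraries only replicates 4 and 5 of 9 months were left. The cause of these shifts was not tested. No member's log2 change for 12 against 3 months reversed under these alternatives. For 12 against 9 months, where no row was called, signs did change. Without replicate 2 of 9 months Obox1 was at -0.22 (0.10 with all libraries) and Obox2 at -0.13 (0.14). Without replicate 3 of 12 months Obox5 was at 0.02 (-0.21) and Khdc1c at 0.07 (-0.20). Without the 4 libraries Obox2 was at -0.01. No paired analysis was possible because the labels give no replicate numbers shared between ages. Obox3 and Obox6 had too few counts to be tested.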
